A study of Mus musculus with 2 samples.

Results

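The 6 hairpins described here are the genes that make miR-9 and miR-124, the microRNAs most closely associated with the nervous system. Mir9-1, Mir9-2 and Mir9-3 each yield miR-9, and Mir124a-1, Mir124a-2 and Mir124a-3 each yield miR-124. They were chosen by name, with earlier results of these data known. They stand against 1974 entries in all, which are the 1973 counted ones and Mir9-1, added as described below. Of these, 386 reached the detection limit of 10 counts in both libraries. The data are microRNA sequencing of hindbrain, which gives rise to the brainstem and cerebellum, from B6NCrl mouse embryos at embryonic day 16.5. There is 1 group, with 2 biological replicates that are each a pool of male and female embryos. Replicate 2 was pooled from 37 embryos, and the pool size of replicate 1 is not given in the sources used here. The labels name no treatment and no genotype beyond the strain. The pools are whole tissue, in which fewer cells of a type and less RNA per cell cannot be told apart.

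A microRNA is cut from a hairpin-shaped precursor whose 5′ and 3′ sides give the 5p and 3p arms, each a short mature strand. The mature strand guides Argonaute proteins to messenger RNAs, mostly through pairing of its seed, the bases at positions 2 to 8. miR-9 is known from neural progenitors and young neurons, where it acts on regulators of progenitor maintenance such as Hes1 and Nr2e1. miR-124 is known from differentiated neurons, where it represses non-neuronal messages and the splicing factor Ptbp1. Both are made from several loci, so the count at 1 locus need not follow the amount of the mature microRNA.

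The deposited values are raw counts of reads placed at a single locus. Replicate 1 held 11018624 reads, with 5097205 on the sense strand of listed microRNA genes, and replicate 2 held 9729498 reads with 4460836. Reads that map to several places are given only as 1 number per library, 3802165 in replicate 1 and 3410352 in replicate 2, or 34.5% and 35.1% of all reads. CPM is the count of a hairpin per 1000000 sense counts. The hindbrain label was checked on Mir10a and Mir10b of the Hox clusters, which ranked 3 and 8 of all entries. The series holds no other region, so these ranks cannot tell hindbrain from other tissue that makes these microRNAs. Of microRNAs known from other tissues, Mir126a and Mir143 of vessels reached 28326 and 7155 CPM, Mir451a and Mir144 of red cells 105 and 72.7 CPM, Mir122 of liver 41.5 CPM, and Mir206 and Mir133b of skeletal muscle 197 and 2.89 CPM. These are means of the libraries, which differed widely for muscle. In replicates 1 and 2 Mir206 had 370 and 24.2 CPM, and Mir133b had 5.10 and 0.673 CPM.

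The miR-9 sequences are shown first because the counts turn on which stretches of the copies differ. All sequences are from RefSeq on GRCm38.p6, and 3 of the 6 hairpins were matched there. The miR-124 hairpins were not matched, so private stretches and shared arms were not examined for them. The mature strands follow, 5′ to 3′, with the seed in capitals.
mmu-miR-9-5p: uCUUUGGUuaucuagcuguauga
mmu-miR-9-3p: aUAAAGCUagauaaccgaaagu
The 5p strand of 23 nt and the 3p strand of 22 nt were each found whole in 3 hairpins of the 1005 in the table, namely Mir9-1, Mir9-2 and Mir9-3. Their seeds differ from each other. Neither seed occurred in another of the 1679 mature names of the table.

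The hairpins follow in the same direction, with the mature arms in capitals and the flanks and loop in lower case.
Mir9-1: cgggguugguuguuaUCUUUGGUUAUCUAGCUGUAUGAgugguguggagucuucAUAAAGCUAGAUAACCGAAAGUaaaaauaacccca
Mir9-2: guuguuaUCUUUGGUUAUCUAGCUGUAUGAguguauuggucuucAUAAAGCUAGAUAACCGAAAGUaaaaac
Mir9-3: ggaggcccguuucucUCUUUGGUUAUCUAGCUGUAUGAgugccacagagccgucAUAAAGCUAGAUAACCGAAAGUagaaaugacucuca
All 3 lie on the plus strand. Mir9-1 is on chromosome 3 from 88215598 to 88215686, within an intron of the lincRNA gene Gm3764. Mir9-2 is on chromosome 13 from 83738814 to 83738885, within an exon of the long noncoding gene C130071C03Rik. Mir9-3 is on chromosome 7 from 79505264 to 79505353, in an intron of its host gene Mir9-3hg.

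The capitals are the same in all 3 lines, and the lower-case letters are where the copies part. Aligned end to end, Mir9-1 and Mir9-2 were identical over 78.7% of columns, Mir9-1 and Mir9-3 over 78.9%, and Mir9-2 and Mir9-3 over 71.1%. Moving outward from each arm, Mir9-3 parted from both other copies earliest at 3 of the 4 arm edges. Its first differing base was base 1 before the 5p arm, base 3 before the 3p arm and base 2 after the 3p arm. Mir9-1 and Mir9-2 shared 7 bases before the 5p arm, up to the end of the listed Mir9-2 hairpin. They shared 6 bases before the 3p arm and 5 after it. After the 5p arm all copies shared 3 bases.

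The stretches that could place a read at 1 copy were counted as windows of 22 nt found in no other hairpin of the table. Such private windows made up 87.0% of 69 windows in Mir9-3, 64.7% of 68 in Mir9-1 and 52.9% of 51 in Mir9-2. Among windows that cover at least 18 bases of the 5p arm, 5 of 10 were private in Mir9-3, and 1 of 10 in each of Mir9-1 and Mir9-2. On the 3p arm 5 of 9 were private in Mir9-3, and 0 of 9 in each of the others. A read confined to an arm therefore matches all 3 copies. One that runs past the 5p arm can match Mir9-3 alone once it reaches base 1 before the arm or base 4 after it. At the 3p arm it must reach base 3 before the arm or base 2 after it. The table holds hairpins and not the genome, so a private window may still occur elsewhere. All of this is for exact matches over the whole read, and the mismatches allowed in mapping are not known.

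**Figure D1:**
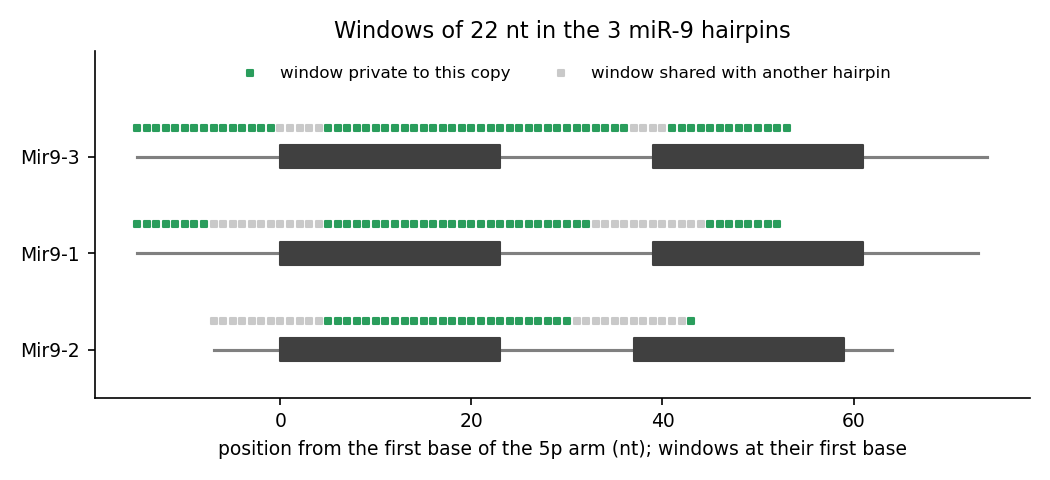
The 3 miR-9 hairpins as lines, with the 5p and 3p arms as dark bars, against the position in nt from the first base of the 5p arm; each square is the first base of a 22-nt window, green where it is found in no other hairpin of the table and grey where it is shared. In Mir9-3 green squares make up 87.0% of the windows, against 64.7% in Mir9-1 and 52.9% in Mir9-2, and the grey stretches lie around the starts of the arms.

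The counts at the 6 loci were very unequal, and Mir9-3 held nearly all of them. Mir9-3 (ENSMUSG00000093238) had 2474 counts in replicate 1 and 2082 in replicate 2, or 485 and 467 CPM. Its level of 476 ± 13.2 CPM (SD, n = 2) ranked 131 of all entries. Both libraries gave nearly the same level, and the exact binomial 95% intervals of 466 to 505 CPM and 447 to 487 CPM overlapped. The entries nearest to it in mean log2(CPM + 1) over the 2 libraries were Mir1193 at 477 ± 25.1 CPM and Mir3099 at 481 ± 7.55 CPM.

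Mir9-1 had no entry of its own among those counted. Its reads were read from the strand opposite to Gm25641 (ENSMUSG00000092876), which runs from 88215589 to 88215696 on the minus strand, past both ends of Mir9-1. There were 175 such counts in replicate 1 and 89 in replicate 2, or 34.3 and 19.95 CPM. The level of Mir9-1 was 27.1 ± 10.2 CPM (SD, n = 2), rank 277, and the 2 intervals of 29.4 to 39.8 CPM and 16.0 to 24.6 CPM did not overlap.

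Mir9-2 (ENSMUSG00000065424) had 4 counts in replicate 1 and 5 in replicate 2, or 0.785 and 1.12 CPM. Both are close to the level of 3 counts, the limit that a count of 0 would allow, or 0.589 and 0.673 CPM in replicates 1 and 2. Intervals and limits cover counting error only, because PCR copies were not told apart from separate molecules.

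The miR-124 hairpins held few counts at every locus. Mir124a-1 (ENSMUSG00000065597), on chromosome 14 from 64590657 to 64590741 in an exon of its host gene Mir124a-1hg, had 22 and 13 counts in replicates 1 and 2. It was the only one of the 3 to be detected, at 3.62 ± 0.991 CPM (SD, n = 2), rank 362. Mir124a-2 (ENSMUSG00000093073), on chromosome 3 from 17795662 to 17795770, had 11 and 3 counts, and 27 of its 109 bases lie in an exon of Mir124-2hg. Mir124a-3 (ENSMUSG00000065454), on chromosome 2 from 180894040 to 180894107, had 1 and 2 counts, and its last 3 bases overlap the long noncoding gene Gm27032. Mir124a-2 and Mir124a-3 stood at 1.42 ± 1.05 and 0.322 ± 0.178 CPM (SD, n = 2).

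**Figure D2:**
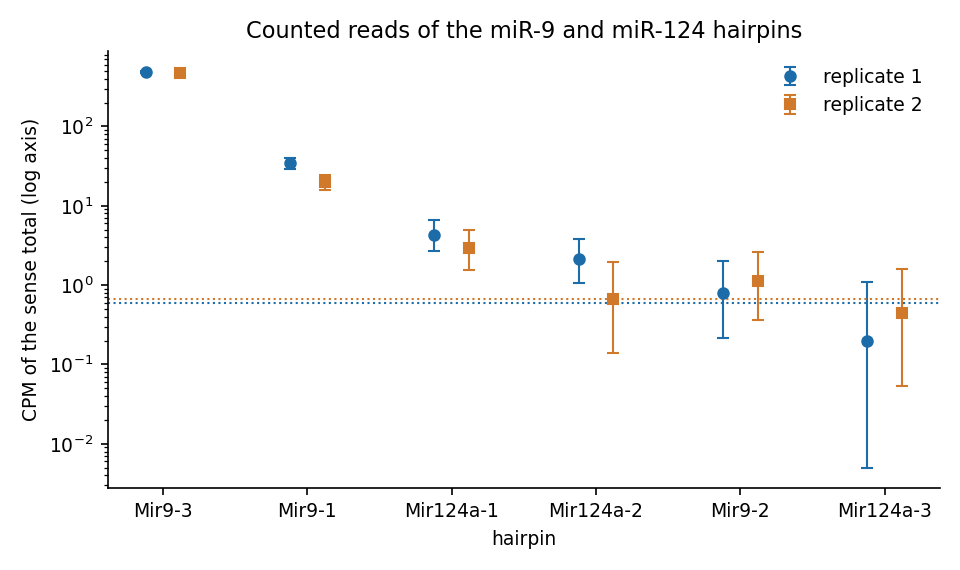
Level of each hairpin in CPM of the sense total on a log axis, for replicate 1 (circles) and replicate 2 (squares), with exact binomial 95% intervals as bars and the level of 3 counts as a dotted line for each library. Mir9-3 lies at 485 and 467 CPM, Mir9-1 at 34.3 and 19.95 CPM, and the intervals of Mir124a-3 and Mir9-2 reach below the dotted lines in both libraries.

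Of the 6 hairpins, 3 were detected, which were Mir9-3, Mir9-1 and Mir124a-1. The median over all 6 was 2.52 CPM, against 150 CPM for the detected entries and 0 CPM for all entries. The 3 miR-9 loci together held 2653 counts in replicate 1 and 2176 in replicate 2, which is 504 ± 23.1 CPM (SD, n = 2). The 3 miR-124 loci together held 34 and 18 counts, or 5.35 ± 1.86 CPM. The summed miR-9 count was 78.0 times the summed miR-124 count in replicate 1 and 121 times in replicate 2, a log2 ratio of 6.60 ± 0.45. This sets counted reads side by side and not the amounts of the mature microRNAs, because reads that map to several places are not in the counts.

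Multimapping reads far outnumbered the reads counted at the 6 hairpins. All 6 hairpins together held 0.0707 counts per 100 multimapping reads in replicate 1 and 0.0643 in replicate 2. For each counted miR-9 read there were 1433 multimapping reads in replicate 1 and 1567 in replicate 2. For each counted miR-124 read there were 111828 and 189464. The whole libraries held 74.6 and 76.5 multimapping reads per 100 sense counts in replicates 1 and 2. The ratios therefore restate the CPM, and any entry of equal CPM would give the same values. How many of the multimapping reads come from miR-9 or miR-124 was not tested, since the files give no breakdown of that total.

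Within miR-9, the copies differed far beyond the spread between libraries. A log2 ratio was called different when its sign was the same in both libraries and its mean was above 2 SD. With 2 libraries, the smallest p that an exact sign-flip test allows is 0.5. Ratios were taken on CPM + 1 and not per length, because a microRNA read covers 1 arm. Mir9-3 exceeded Mir9-1 by 4.13 ± 0.49 and Mir9-2 by 7.94 ± 0.22 on the log2 scale (SD, n = 2). Mir9-1 exceeded Mir9-2 by 3.81 ± 0.71. Without the added 1 CPM the ratios to Mir9-2 were 8.99 for Mir9-3 and 4.80 for Mir9-1. All 3 ratios were past 2 SD, as were 9 of the 10 copy ratios of other neural families described below, so passing this rule does not set miR-9 apart. The order of copies was the same in both libraries.

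In plain counts, Mir9-3 had 14.1 reads for each Mir9-1 read in replicate 1, with an exact interval of 12.1 to 16.6, and 23.4 in replicate 2, with 18.9 to 29.3. Mir9-3 made up 93.3% of miR-9 counts in replicate 1 (exact interval 92.2% to 94.2%) and 95.7% in replicate 2 (94.7% to 96.5%). Mir9-1 made up 6.60% (5.68% to 7.61%) and 4.09% (3.30% to 5.01%), so its share was higher in replicate 1 by more than counting error. The copy with the most private windows on its arms, Mir9-3, was also the copy with the most counts. Mir9-1 and Mir9-2 had the same number of private 22-nt windows on their arms, and 44 and 27 over the whole hairpin. Mir9-1 had 43.8 reads for each Mir9-2 read in replicate 1 (16.8 to 162) and 17.8 in replicate 2 (7.35 to 56.2). The part of the private windows in these differences was not tested.

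Within miR-124, only the margin of Mir124a-1 was larger than the spread. Mir124a-1 exceeded Mir124a-2 by 0.99 ± 0.34 and Mir124a-3 by 1.79 ± 0.51 on the log2 scale (SD, n = 2), both past 2 SD. Mir124a-2 over Mir124a-3 gave 0.80 ± 0.84 and did not pass. These ratios rest on few counts, and without the added 1 CPM Mir124a-1 over Mir124a-2 was 1.56 ± 0.79 and no longer passed. For Mir124a-1 against Mir124a-2 the exact interval of the count ratio was 0.930 to 4.57 in replicate 1, which includes equality, and 1.19 to 23.7 in replicate 2, which does not.

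Ordered by level, the 6 hairpins ran Mir9-3, Mir9-1, Mir124a-1, Mir124a-2, Mir9-2 and Mir124a-3. Mir9-1 exceeded Mir124a-1 by 2.58 ± 0.22 (log2, SD, n = 2), past 2 SD. Mir124a-2 and Mir9-2 did not differ beyond their spread (0.24 ± 0.82), with opposite signs in the 2 libraries. Mir9-2 over Mir124a-3 gave 0.56 ± 0.02, but with 4 counts against 1 and 5 counts against 2 the exact intervals of both count ratios included equality.

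Other neural microRNAs made from several hairpins give a scale for these values. All 21 counted hairpins of miR-7, miR-125b, miR-128, miR-129, miR-135a, miR-138, miR-181a, miR-181b, miR-218 and miR-219a were detected, with a median of 447 CPM and a range of 6.22 to 4192 CPM. Mir9-3 lay above 11 of the 21, whereas Mir9-2, Mir124a-1, Mir124a-2 and Mir124a-3 lay below the lowest, Mir181b-1. Among 10 hairpins of single-locus neural microRNAs (Mir132, Mir134, Mir137, Mir149, Mir153, Mir212, Mir326, Mir330, Mir346 and Mir488) the median was 929 CPM, and 4 lay below Mir9-3. No test was made of the difference between these lists.

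Copies that make the same mature strand were paired, so Mir7b, whose arms are both private, entered no pair. The log2 ratio of the higher over the lower copy ranged from 0.36 to 6.47 in the 10 pairs of the other families, with a median of 1.16, and 9 of the 10 passed 2 SD. The widest was Mir181b-2 over Mir181b-1 at 6.47 ± 0.10, followed by Mir181a-1 over Mir181a-2 at 4.64 ± 0.22 (SD, n = 2). The value of 7.94 for Mir9-3 over Mir9-2 was above all 10, and that of 4.13 for Mir9-3 over Mir9-1 was above 8 of them. Mir9-3 and Mir9-2 are the most distant pair of 3 copies, whereas each other family gave 1 pair. The families are of unequal level, and at the low counts of Mir9-2 the ratio depends on the value added to CPM.

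**Figure D3:**
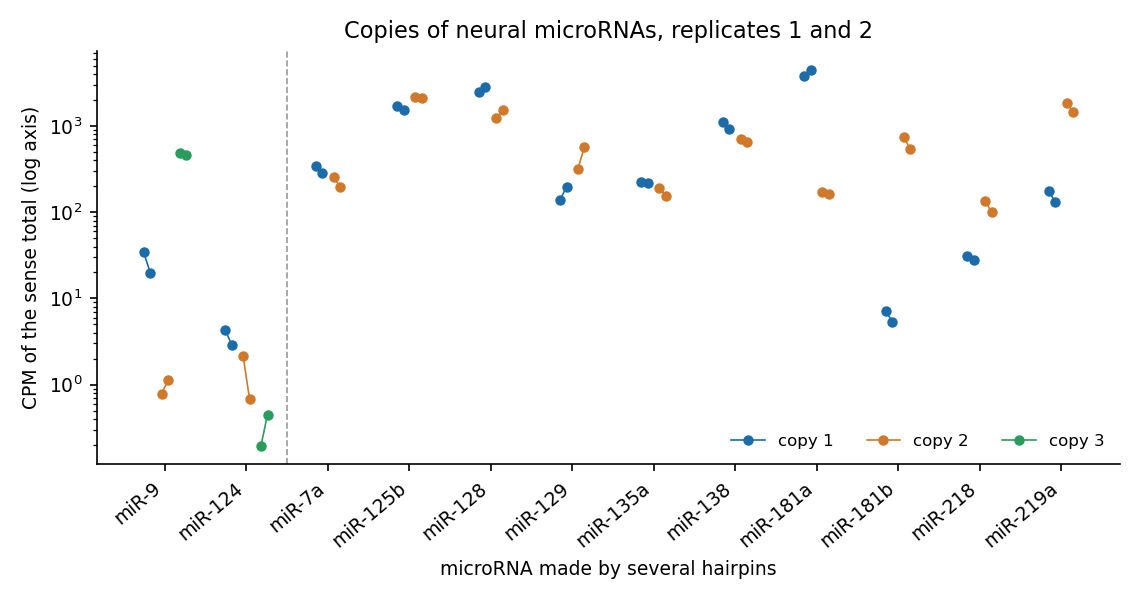
Level in CPM (log axis) of each copy of 12 neural microRNAs, with copies 1, 2 and 3 in blue, orange and green, and replicates 1 and 2 as joined points from left to right. miR-9 and miR-124 stand left of the dashed line; Mir9-3 lies near 476 CPM and Mir9-2 near 0.953 CPM, while the median of the 21 hairpins of other families is 447 CPM (Mir7b, counted among the 21, is not drawn).

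In each miR-9 hairpin both listed arms are shared with other genes. An arm was called private when its letters occurred in no other gene of the RefSeq table. Among the 21 hairpins of the other families, 19 had at least 1 private arm, usually the strand named after the copy, such as miR-128-1-5p of Mir128-1. The exceptions were Mir129-1 and Mir219a-2, for each of which the table lists 1 arm. Over the 917 entries with listed arms, 38 had no private arm, and 9 of these, or 23.7%, were detected, against 347 of 917, or 37.8%, over all. Of 51 entries with some arms private 72.5% were detected, and of 828 with every arm private 36.4%. The 38 include Gm25641, the entry opposite to Mir9-1. The median of the 9 detected among the 38 was 168 CPM, against 156 CPM over all detected entries with listed arms. Mir9-3 ranked 3 in level among the 38, after Mir219a-2 at 1648 CPM and Mirlet7c-2 at 638 CPM. Mir9-1 ranked 8 and Mir9-2 ranked 10.

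**Figure D4:**
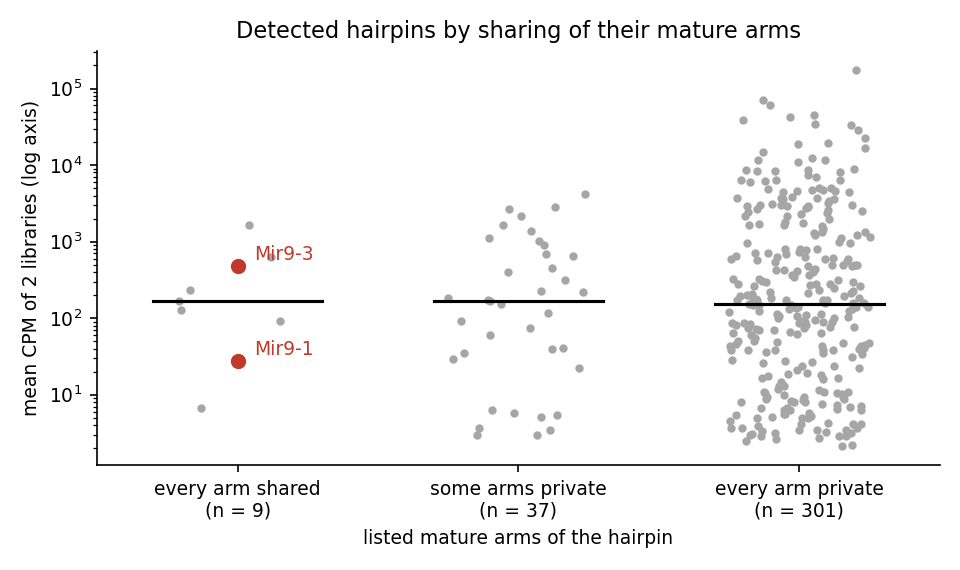
Mean CPM of 2 libraries (log axis) of detected hairpins, split by whether every listed mature arm, some arms or no arm is shared with another gene; black lines are medians and the red points are Mir9-3 and Mir9-1. Mir9-3 at 476 CPM lies above the median of 168 CPM of the 9 detected hairpins with every arm shared, and Mir9-1 at 27.1 CPM below it.

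The strand opposite to the miR-9 and miR-124 hairpins carried almost no reads placed at a single locus. RefSeq lists a second microRNA, miR-9b, on the minus strand of the miR-9 loci, with the strands below, again with the seed in capitals.
mmu-miR-9b-5p: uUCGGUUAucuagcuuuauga
mmu-miR-9b-3p: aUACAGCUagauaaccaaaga
The reverse complement of each lies inside 3 of 3 miR-9 hairpins, so a miR-9b read within these strands fits every miR-9 locus. Such a read would be left out of single-locus counts, so these counts cannot show whether miR-9b was present. Gm25641, which RefSeq also names Mir9b-1, had 0 counts on its own strand in both libraries. The limits of 0.589 and 0.673 CPM given above apply to single-locus counts and set no limit on miR-9b itself. The opposite strand of Mir9-3 held 0 and 3 counts, and that of Mir9-2 held 0 and 0. The opposite strand of Mir124a-3 held 1 and 0 counts, and those of Mir124a-1 and Mir124a-2 held 0 in both libraries. The relatives Mir9b-2, Mir9b-3 and Mir124b had no entry under those names and were not analysed here. Mir9-1 was 1 of 12 positions in the tables with more opposite-strand than sense counts in both libraries. It ranked 11 of the 12, far below Mir376a at 5858 CPM and Mirlet7e at 5640 CPM, which were likewise read from the opposite strand of another entry.

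Beside the entries that overlap them, the 6 hairpins had 2 other microRNA genes within 10000 bases. Mir3093 lies 340 bases before Mir9-1, on the same strand and within the span of Gm3764. It had 125 and 104 counts in replicates 1 and 2, or 23.9 ± 0.855 CPM (SD, n = 2), close to the 27.1 CPM of Mir9-1. Mir3078 lies 443 bases after Mir124a-1, within the span of Mir124a-1hg. It had 79 and 59 counts, or 14.4 ± 1.61 CPM, above Mir124a-1 in both libraries. Both neighbours were chosen after their values were seen.

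Between the libraries, Mir9-1 differed by more than counting noise, while no difference was shown for Mir9-3. Replicate 1 was set against replicate 2 by an exact two-sided binomial test on TMM-scaled totals with Benjamini-Hochberg adjustment, which compares these libraries and covers counting noise only. It called 46.5% of the 402 entries tested, and 24.6% were called higher in replicate 1. Of the 3 hairpins with a summed count of at least 20, which the test required, 1 was called. Mir9-1 was higher in replicate 1 by a log2 ratio of 0.72 (exact interval 0.34 to 1.10, adjusted p = 0.000374 by the exact binomial test). With so many entries called this count is close to the background. The exact test of edgeR with the biological coefficient of variation set to 0.1, which allows for variation between pools, called 1.74% of entries, and Mir9-1 did not pass (adjusted p = 0.296).

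Mir9-3 gave a log2 ratio of -0.01 (exact interval -0.09 to 0.08, adjusted p = 0.915 by the exact binomial test). Its interval, which covers counting noise only, lies below that of Mir9-1. Mir124a-1 gave 0.50 (-0.55 to 1.61, adjusted p = 0.542 by the exact binomial test), an interval too wide to place it with either. Mir3093, the neighbour of Mir9-1, gave 0.01 (-0.38 to 0.40), and the interval overlaps that of Mir9-1. The skeletal muscle microRNA Mir206 was also higher in replicate 1, with 1884 counts in replicate 1 and 108 in replicate 2 (log2 ratio 3.87). Its part in the result for Mir9-1 was not tested.

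**Figure D5:**
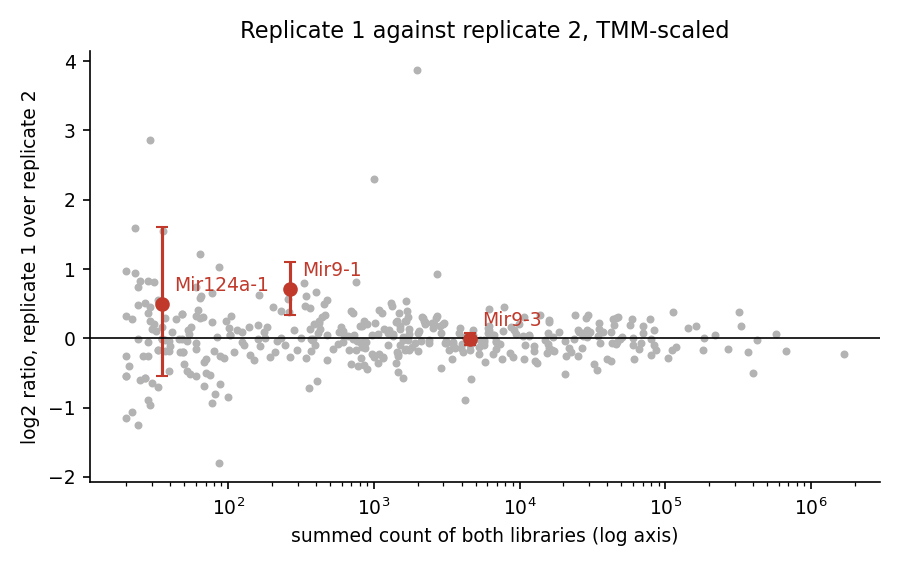
Log2 ratio of replicate 1 over replicate 2 after TMM scaling against the summed count of both libraries (log axis) for the 402 tested entries, with Mir9-3, Mir9-1 and Mir124a-1 in red and their exact binomial 95% intervals as bars. The interval of Mir9-1 (0.34 to 1.10) lies above 0, and those of Mir9-3 and Mir124a-1 include it.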

How the data were processed

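Small RNA of 2 hindbrain pools was sequenced from total RNA, with a stated size limit of 30 nt per the labels. The deposited counts are raw reads per gene on mm10 with GENCODE M4, per the labels deposited beside each table. The aligner and counter are not named there. A table has 4 summary lines, which stayed out of totals, and 3 count columns, for either strand and for each strand alone. The second count column was used as the sense count, and Mir9-1 was added from the opposite strand of Gm25641. Coordinates, hosts and symbols are those of GENCODE M21 (GRCm38), to which 1894 of 1973 identifiers matched without their version. Mir9-2 and Mir124a-3 have version 1 in the tables and version 2 in M21, so the interval counted may differ from the one given.

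The members and lists were chosen with earlier results of these data known. All 6 members and the nearest entries to members above 100 CPM are named, list entries are named or given by family, and other names were chosen after their values were seen. Entries with a summed count of at least 20 entered the library comparison. The comparison was tested on data simulated with counting noise alone, which does not show how it behaves under variation between pools. Its threshold was an adjusted p of 0.05. Nothing says whether the pools came from separate litters, so SDs measure only the spread between these libraries. Alternatives are in the closing section. Scaling and the edgeR test used edgeR 4.0.16 and DESeq2 1.42.0 in R 4.3.3, and all else used scipy 1.17.1, pandas 2.3.3 and numpy 2.4.6 in Python 3.11.15.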

Additional observations from a re-analysis of the deposited data

How the results depend on the processing

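No paired analysis was possible because the series holds 1 group. With multimapping reads in the total, the summed miR-9 level was 287 CPM in place of 504 and the summed miR-124 level 3.05 CPM in place of 5.35, and without the most abundant entry in the total miR-9 was 612 CPM. Each library alone gave 488 to 520 CPM for miR-9 and 4.04 to 6.67 CPM for miR-124. Of 24 settings of the copy ratios that used both libraries, which were other pseudocounts, either strand and, added after the data were seen, levels per 100 nt of hairpin, 23 kept direction and call. The exception was Mir124a-1 over Mir124a-2 without a pseudocount, at 1.56 ± 0.79, no longer past 2 SD. For Mir124a-2 over Mir124a-3, keeping the call means that the ratio stayed not called. Counts of either strand could change little, because the opposite strands of the members were almost empty. The ratio of Mir9-3 over Mir9-2 was 8.99 without a pseudocount. The exact binomial test called 180 to 194 entries under the other scalings and minimums and 195 with counts of either strand, and edgeR's exact test called 7. Mir9-3 between libraries gave a log2 ratio of 0.0565 with plain totals and 0.00787 with DESeq2 size factors, so its sign turned, without a call. The total of multimapping reads limits what these counts show of either microRNA, and Mir9-2, Mir124a-2 and Mir124a-3 rest on 11 counts or fewer in each library.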
